A study of Mus musculus with 15 samples.

Results

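The comparison described here set a Twist1 S42A rescue line against the parental 4T1 cells it was ultimately derived from. 4T1 is a metastatic mouse mammary carcinoma line. The 6 arrays were chosen by sample title, 3 titled for the S42A line and 3 for parental cells, out of 15 arrays of 5 lines. The S42A line was made from Tw1KD cells, 4T1 cells depleted of their own Twist1, by adding back Twist1 with the substitution S42A, alanine in place of serine at residue 42. The labels name parental cells only as the 4T1 line, with no depletion or construct given for them. The comparison therefore joins 2 steps, the depletion and the mutant rescue, and the other lines are used below only to place the S42A values. These were the S42D rescue line (aspartate at residue 42), the wild-type Twist1 rescue line and the Tw1KD line without rescue, each with 3 arrays. The genotype label of the S42D arrays names both substitutions, so that line is identified by its title.

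Twist1 is a basic helix-loop-helix transcription factor that binds E-box sequences in DNA. In carcinoma cells it is known for repressing epithelial adhesion genes such as the E-cadherin gene Cdh1 and for driving the epithelial-mesenchymal transition, in which cells lose junctions and gain motility. Serine 42 is a site at which the kinase Akt phosphorylates Twist1. An alanine in that place leaves no hydroxyl group for the phosphate, whereas the charge of an aspartate is commonly taken to imitate it.

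Per the labels, the medium of all lines held 800 µg/ml G418 and 4 µg/ml puromycin, RNA was taken at 70% confluency, and 100 ng of it was labelled. Whether parental cells carried resistance to these drugs is not given, nor is how Twist1 was depleted, how the constructs were introduced, whether a line is 1 clone or a pool, or whether the 3 arrays of a line came from separate cultures. The p-values then measure the spread between these arrays, which may be technical. Levels are log2 intensities, so a step of 1 is 2-fold. Differences are S42A minus parental unless stated, with standard errors, and levels carry standard deviations (n = 3 arrays per line). The 19937 genes had a median level of 7.28 and the 25% of genes that were dimmest lay below 5.51, where array background compresses folds. The median SD of a gene over 3 arrays was 0.068 in the S42A line and 0.066 in parental cells. Across genes, which are not independent replicates, arrays correlated at 0.9978 to 0.9989 within the S42A line, 0.9979 to 0.9985 within parental cells and 0.9814 to 0.9833 between the lines. No S42A or parental array therefore correlated less with its own line than with the other.

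Twist1 was read first, as the targeted gene. Its levels were 8.60, 8.71 and 8.80 in the S42A line, against 9.01, 9.03 and 9.07 in parental cells. The S42A arrays all lay below the parental arrays, by a small margin. The difference was -0.33 ± 0.080 (adjusted p = 0.0038, moderated test in limma, adjusted over all genes by Benjamini-Hochberg, which gives every adjusted p below). In Tw1KD cells the mean was 7.35, so the S42A line read 1.36 log2 higher than the line it was made from (adjusted p = 3.94e-09). Which part of the transcript the probe set reads is not known, so these values may or may not include the construct.

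At an adjusted p under 0.05, 4512 genes (22.6%) were higher in the S42A line and 3524 (17.7%) were lower, 8036 in all (40.3%). Of these calls 56.1% were therefore rises. When each array was centred on its own median, 5979 genes were higher and 2232 lower, and the share of rises was 72.8%, because every difference moved up by about the same small amount (the median over all genes was -0.00495 as deposited and 0.0861 after centring). Differences of at least 2-fold numbered 322 higher (1.62% of genes) and 379 lower (1.9%), and 414 higher and 330 lower after centring, so falls outnumbered rises as deposited and rises outnumbered falls after centring. The median standard error of a difference was 0.067, so differences far under 2-fold passed the test. In 9583 genes (48.1%) the arrays of the 2 lines did not overlap. The counts of listed genes below are to be read beside the shares called over all genes.

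**Figure D1:**
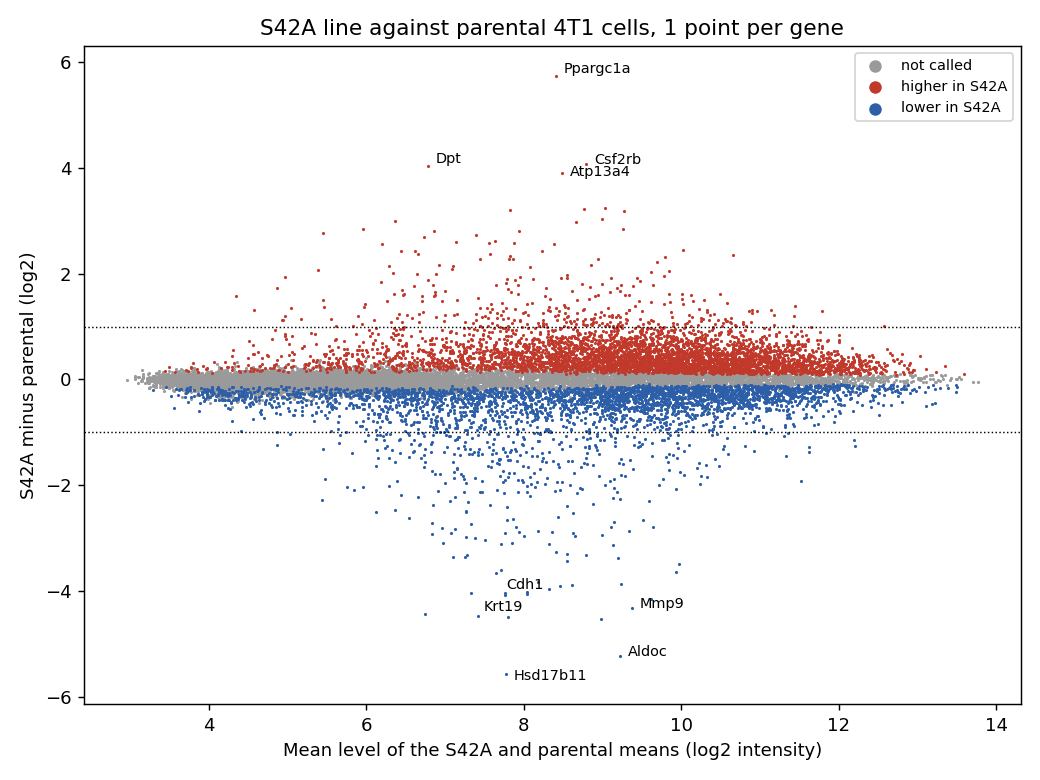
S42A minus parental difference (log2, vertical axis) against mean level (log2 intensity, horizontal axis) for 19937 genes, 1 point each, with genes called higher in red, called lower in blue and not called in grey, and dotted lines at 2-fold. Ppargc1a stands alone at the top with a difference of 5.74, and Hsd17b11 and Aldoc are lowest, at -5.58 and -5.23.

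The gene with the largest rise was Ppargc1a, which encodes PGC-1alpha, a coactivator that drives mitochondrial biogenesis and oxidative metabolism. It read 11.26, 11.30 and 11.25 in the S42A line, against 5.29, 5.60 and 5.70 in parental cells, a level at the edge of the dimmest 25% of genes. All 3 S42A arrays were far above all parental arrays. The difference was 5.74 ± 0.11 (adjusted p = 7.03e-14), and a second probe set of the gene gave 5.53. The level was also intermediate in the S42D line (mean 8.93) and in Tw1KD cells (7.23), while the mean of the wild-type Twist1 line, 5.51, was not called different from parental cells (adjusted p = 0.886). The S42A line was 2.34 higher than the S42D line and 5.76 higher than the wild-type line (adjusted p = 9.83e-10 and 1.19e-13).

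The next largest rises came from genes of unlike function. Csf2rb, the common beta chain of the IL-3, IL-5 and GM-CSF receptors, read 10.82, 10.84 and 10.83 in the S42A line, against 6.98, 6.83 and 6.45 in parental cells (difference 4.08 ± 0.098); the mouse has a near-identical copy of this gene, so the value may mix both. Dpt, which encodes the small matrix protein dermatopontin, read 8.71, 8.75 and 8.93 in the S42A line, against 4.78, 5.04 and 4.46 in parental cells (difference 4.04 ± 0.12). In both genes the 2 sets of arrays were far apart. Csf2rb and Dpt were also high in the wild-type Twist1 line, with means of 10.88 and 8.65, and in the S42D line, with 12.02 and 8.17, and low in Tw1KD cells, with 7.71 and 4.67. A like layout, high in the rescue lines, was seen for Ifi207, an interferon-inducible gene of the mouse Ifi200 family whose members are closely similar, with 10.86 in the S42A line, 10.80 in the S42D line, 10.80 in the wild-type line, 8.13 in Tw1KD cells and 7.69 in parental cells.

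Further large rises differed in how the other rescue lines lay. Otop1, a proton channel, read 10.58, 10.69 and 10.66 in the S42A line, against 7.45, 7.45 and 7.32 in parental cells, with no overlap and a difference of 3.24 ± 0.066. Its means in the S42D and wild-type lines, 7.33 and 7.42, were not called different from parental cells, and the S42A line exceeded them by 3.31 and 3.22 (adjusted p = 5.84e-14 and 1.38e-13). Adgrf5, an adhesion G protein-coupled receptor, rose by 3.22 ± 0.092, and the S42A line exceeded the S42D line by 1.98 and the wild-type line by 3.42. Arg2, the mitochondrial arginase, rose by 2.84 ± 0.050 to 10.68 ± 0.018, against 7.84 ± 0.048 in parental cells, and the S42A line exceeded the S42D line by 2.08 and the wild-type line by 3.25. Lipn, a lipase of keratinocyte differentiation, rose by 3.0 ± 0.098, and the S42A line exceeded the S42D line by 2.72 and the wild-type line by 0.58. Atp13a4, a P-type transport ATPase, rose by 3.90 ± 0.094 to 10.43, but was higher in the wild-type line (10.83, a difference of -0.40). The remaining 3 of the 12 largest rises, Ifit1, Usp18 and Trim30a, are interferon-stimulated genes and are taken up below.

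Among the falls, Hsd17b11, a lipid droplet dehydrogenase, had levels of 5.10, 4.79 and 5.06 in the S42A line, against 10.55, 10.52 and 10.61 in parental cells. This put it among the brightest 25% of genes in parental cells and the dimmest 25% in the S42A line. The difference was -5.58 ± 0.098 (adjusted p = 2.33e-14). Tw1KD cells had a low level too, with a mean of 5.08 and a difference from the S42A line of -0.096 ± 0.098 that was not called (adjusted p = 0.505). By contrast the S42D and wild-type lines read 10.80 and 9.80.

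Bckdhb and Hexa were low in the S42A line and high in each of the other 4 lines. Bckdhb encodes a subunit of the branched-chain ketoacid dehydrogenase, which degrades branched-chain amino acids. Its levels were 5.83, 5.57 and 5.25 in the S42A line, against 10.02, 9.91 and 10.19 in parental cells, and the means of the S42D, wild-type and Tw1KD lines were 9.94, 9.89 and 10.27. The S42A line differed from these 3 lines by -4.39, -4.34 and -4.72 (adjusted p = 8.50e-13, 1.40e-12 and 2.94e-13). Hexa, a subunit of lysosomal hexosaminidase, read 6.16, 5.46 and 5.52 in the S42A line, against 9.76, 9.81 and 9.82 in parental cells, with means of 10.04, 10.04 and 10.62 in the S42D, wild-type and Tw1KD lines. S42A replicate 1 lay above the other two in Hexa, and all 3 stayed well below every parental array.

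Sfrp1, a secreted Wnt antagonist, had the opposite layout, high in parental cells and low in every derived line. It read 5.45, 5.21 and 5.25 in the S42A line, against 9.49, 9.16 and 9.41 in parental cells (difference -4.05 ± 0.081), and averaged 5.16, 5.15 and 5.23 in the S42D, wild-type and Tw1KD lines. None of these 3 lines was called different from the S42A line in Sfrp1 (adjusted p = 0.203, 0.164 and 0.532). Esrp1, which encodes an epithelial splicing factor, was laid out in the same way, with means of 5.22 in the S42A, 5.15 in the S42D, 5.05 in the wild-type and 5.20 in the Tw1KD lines and 7.84 in parental cells.

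The other falls included Aldoc, a glycolytic aldolase that read 6.67, 6.77 and 6.37 in the S42A line, against 11.81, 11.84 and 11.84 in parental cells (-5.23 ± 0.079). Mmp9, a gelatinase that cleaves basement membrane, read 7.10, 7.19 and 7.35 in the S42A line, against 11.56, 11.50 and 11.54 in parental cells (-4.32 ± 0.057). Npnt, the matrix ligand nephronectin, read 7.52, 7.55 and 7.55 in the S42A line, against 11.72, 11.59 and 11.77 in parental cells (-4.15 ± 0.051). In all 3 genes the S42A line was the lowest of the 5, and it differed from the S42D line by -4.60, -3.52 and -3.44 and from the wild-type line by -2.41, -1.49 and -0.83, each called. Jmjd8 (-4.54 ± 0.099), the glutathione transferase Gstm5 (-4.44 ± 0.081) and the hydrolase Cmbl (-4.04 ± 0.17) completed the falls outside the epithelial genes. Gstm5 belongs to a family of similar genes, so its value may include its relatives.

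**Figure D2:**
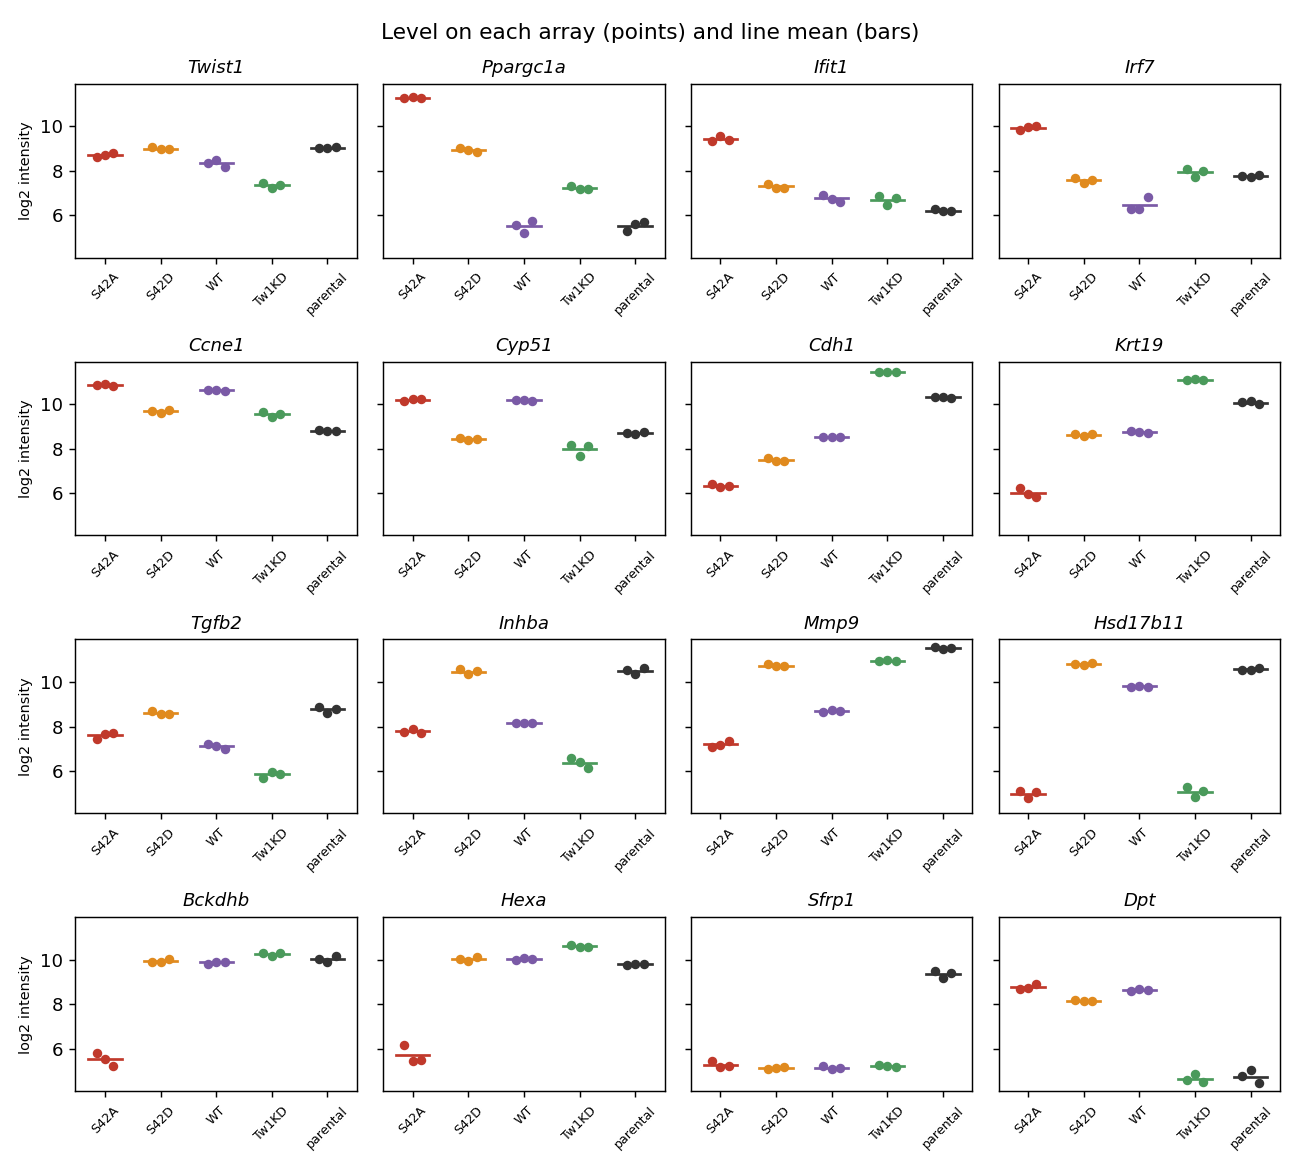
Levels of 16 genes (log2 intensity, shared vertical axis) on each array, with points for arrays and bars for line means, in the S42A, S42D, wild-type Twist1 (WT), Tw1KD and parental lines. Bckdhb and Hexa were low in the S42A line alone, Hsd17b11 was low in the S42A and Tw1KD lines, and Sfrp1 was high in parental cells alone.

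Interferon-stimulated effector genes, which carry out antiviral defence, were the list with the highest median. All lists and their members were chosen with earlier results of these data known, so this rank is a description only. Type I interferons signal through Jak kinases and the transcription factors they activate to a promoter sequence called the interferon-stimulated response element, and the induced proteins bind viral RNA, cut it or block its translation. Of 49 measured effectors, 40 were higher in the S42A line, 1 was lower and 8 were not called. Their median difference was 0.813, against -0.00495 over all genes, and 22 were at least 2-fold higher. The share called higher over all genes was 22.6%, and the 14 alternatives gave 36 to 42 effectors higher.

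Ifit1, which binds viral RNA lacking a host cap, read 9.32, 9.55 and 9.40 in the S42A line, against 6.28, 6.19 and 6.18 in parental cells. Usp18, a protease that removes the ubiquitin-like protein Isg15, read 10.42, 10.59 and 10.51 in the S42A line, against 7.39, 7.46 and 7.58 in parental cells. Trim30a, a member of a cluster of similar mouse Trim genes, read 10.08, 10.20 and 10.17 in the S42A line, against 7.17, 7.17 and 7.17 in parental cells. In each gene the lowest S42A array lay far above the highest parental array. The differences were 3.20 ± 0.10, 3.03 ± 0.069 and 2.98 ± 0.089 (adjusted p = 7.97e-12, 2.55e-13 and 4.59e-12). The chemokine gene Cxcl10 rose by 1.94 ± 0.11, with 8.71, 8.97 and 9.09 in the S42A line, against 7.13, 6.96 and 6.86 in parental cells. Rsad2, the antiviral enzyme viperin, rose by 2.70 ± 0.057 and Ifit3, a relative of Ifit1, by 2.44 ± 0.059; both were chosen after their values were seen. The 1 effector that fell was the exonuclease Isg20 (-0.94 ± 0.049), which read 10.59, 10.67 and 10.74 in the S42A line, against 11.61, 11.63 and 11.58 in parental cells.

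**Figure D3:**
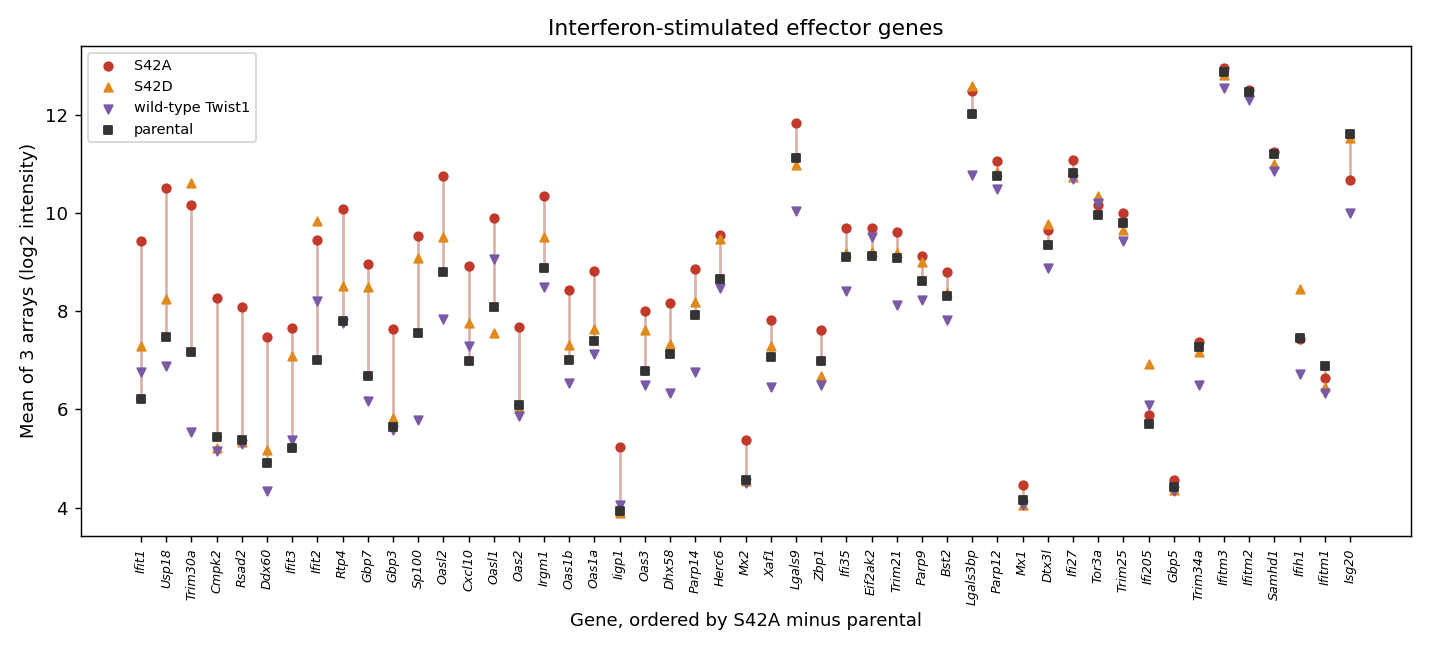
Mean level (log2 intensity, 3 arrays) of the 49 measured interferon-stimulated effectors in the S42A line (circles), the S42D line (upward triangles), the wild-type Twist1 line (downward triangles) and parental cells (squares), ordered by S42A minus parental, with a pink line joining S42A and parental. The S42A circles lie above the parental squares for most genes, from 3.20 for Ifit1 down to -0.94 for Isg20.

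The promoters of 3 of these genes are shown because they carry the core of the response element, searched as GAAANNGAA on both strands. Each window runs from 250 bases before to 50 bases after the gene's start, in RefSeq's GRCm38.p6 sequence, read 5′ to 3′ along the gene, and the core is in capitals. In these windows the matches lie on the opposite strand, so the core appears as its reverse complement. Neighbouring cores can overlap.
Ifit1: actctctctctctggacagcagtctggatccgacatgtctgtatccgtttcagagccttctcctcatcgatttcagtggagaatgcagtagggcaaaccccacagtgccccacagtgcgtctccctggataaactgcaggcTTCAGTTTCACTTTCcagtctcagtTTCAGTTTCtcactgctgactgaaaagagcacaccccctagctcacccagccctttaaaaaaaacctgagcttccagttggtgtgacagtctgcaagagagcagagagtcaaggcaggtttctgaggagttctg
Ifit3: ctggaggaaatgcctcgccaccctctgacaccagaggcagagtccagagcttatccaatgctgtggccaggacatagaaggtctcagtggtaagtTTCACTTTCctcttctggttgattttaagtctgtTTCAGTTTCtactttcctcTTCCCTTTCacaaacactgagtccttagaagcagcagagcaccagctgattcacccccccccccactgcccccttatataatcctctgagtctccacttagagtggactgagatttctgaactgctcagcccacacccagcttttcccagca
Rsad2: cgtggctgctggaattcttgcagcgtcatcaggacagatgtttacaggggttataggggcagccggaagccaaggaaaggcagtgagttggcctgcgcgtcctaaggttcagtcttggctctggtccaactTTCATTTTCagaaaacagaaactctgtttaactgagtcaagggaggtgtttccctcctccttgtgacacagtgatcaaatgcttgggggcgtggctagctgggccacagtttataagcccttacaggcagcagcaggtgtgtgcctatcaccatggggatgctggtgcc
The Ifit1 window (chr19:34640639-34640938, plus strand) holds 3 cores starting 109 to 84 bases before the start, the Ifit3 window (chr19:34583279-34583578, plus strand) holds 3 from 155 to 102 bases before it, and the Rsad2 window (chr12:26456403-26456702, minus strand) holds 1, at 119 bases. A promoter window was found for 15613 of the measured genes, and 7.94% of those windows held the core. Among the effectors called higher it was in 16 of 27 windows (59.3%), and among those not called in 6 of 8 (75%). The list was thus rich in the core whether or not its members rose. A match is a description of the letters and not a measured binding site.

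Upstream factors of the pathway were mixed. Of 33 measured signalling factors, 15 were higher and 11 lower, with a median of 0.038. As deposited 78.8% of them were called. Over all genes 40.3% were called, 22.6% higher and 17.7% lower. With each array centred on its median 5 were lower. Irf7, the transcription factor that amplifies interferon production, stood out with 9.83, 9.97 and 10.01 in the S42A line, against 7.75, 7.72 and 7.82 in parental cells (2.17 ± 0.13, adjusted p = 6.82e-09). Tlr3, a sensor of double-stranded RNA, rose by 0.81 ± 0.066, and Cgas, a sensor of cytosolic DNA, by 0.67 ± 0.11. The bacterial lipoprotein receptor Tlr2 (-1.50 ± 0.13), the feedback inhibitor Socs3 (-0.59 ± 0.054) and its activator Stat3 (-0.47 ± 0.042) fell. A second, dimmer Socs3 probe set gave -0.17 and was not called (adjusted p = 0.153), and the mean of both gave -0.38.

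The antigen presentation genes that were measured, many of them also inducible by interferon, were not raised as a list. Of 16 measured MHC class I pathway genes, 2 were higher, 5 lower and 9 not called, with a median of -0.060. The 43.8% called was near the 40.3% over all genes. The list held 21 entries, and its class I genes H2-K1, H2-D1, H2-Q7, H2-T23 and H2-T22 had no value. The only H2 gene read was H2-Q10, which was dim (5.30 in the S42A line, 5.45 in parental cells) and not called. The immunoproteasome subunit Psmb8 rose by 0.44 ± 0.12 and the chaperone Calr by 0.24 ± 0.039. Psme1, a proteasome activator (-0.56 ± 0.062), the peptide transporter Tap2 (-0.43 ± 0.044) and the immunoproteasome subunit Psmb9 (-0.35 ± 0.061) fell.

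Of 30 caspase and cell death genes, 12 were higher and 2 lower (median 0.087). The 46.7% called was close to the 40.3% over all genes, of which 22.6% were higher and 17.7% lower. Casp1, the protease that matures inflammatory cytokines, read 9.37, 9.46 and 9.48 in the S42A line, against 7.50, 7.36 and 7.69 in parental cells (1.92 ± 0.097), while its substrate Il18 fell (-1.89 ± 0.13). The S42A arrays lay above every parental array in Casp1. Birc3, an inhibitor of apoptosis, rose by 0.98 ± 0.093 and the death ligand Tnfsf10 by 0.96 ± 0.13. The receptor of that ligand, Tnfrsf10b, fell (-0.80 ± 0.048).

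Among 39 chemokines and cytokines, 8 were higher, 9 lower and 22 not called, and centring each array raised the first count to 15. The 43.6% called was near the 40.3% over all genes. The monocyte attractants Ccl2 (1.36 ± 0.16) and Ccl7 (0.95 ± 0.11) rose with Cxcl10. The neutrophil attractant Cxcl15 (-3.35 ± 0.095), the transmembrane chemokine Cxcl16 (-2.50 ± 0.11) and the IL-23 subunit Il23a (-2.12 ± 0.056) fell.

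The other lines placed the interferon effectors as follows, noting that comparisons with parental cells share those 3 arrays and comparisons with the S42A line share its 3. Against the wild-type Twist1 line, 46 of the 49 effectors were higher in the S42A line and 0 were lower by limma (0 at an unadjusted p under 0.05), where 40% of all genes were called in either direction. Against the S42D line 36 were higher and 6 lower (36.1% of all genes called), and against Tw1KD cells 39 and 1 (42.5% called). The medians of these 3 differences were 1.28, 0.464 and 0.835. The wild-type line against parental cells had 6 higher and 31 lower (49% of all genes called), the S42D line had 19 and 7 (37% called) and Tw1KD cells 15 and 10 (36.3% called). Usp18 averaged 10.51 in the S42A line, 8.25 in the S42D line, 6.87 in the wild-type line, 7.92 in Tw1KD cells and 7.48 in parental cells. Trim30a averaged 10.15 in the S42A line and was a little higher in the S42D line, at 10.61 (difference -0.45 ± 0.089, adjusted p = 8.58e-04). The wild-type and Tw1KD lines, at 5.53 and 5.97, were both below the 7.17 of parental cells.

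**Figure D4:**
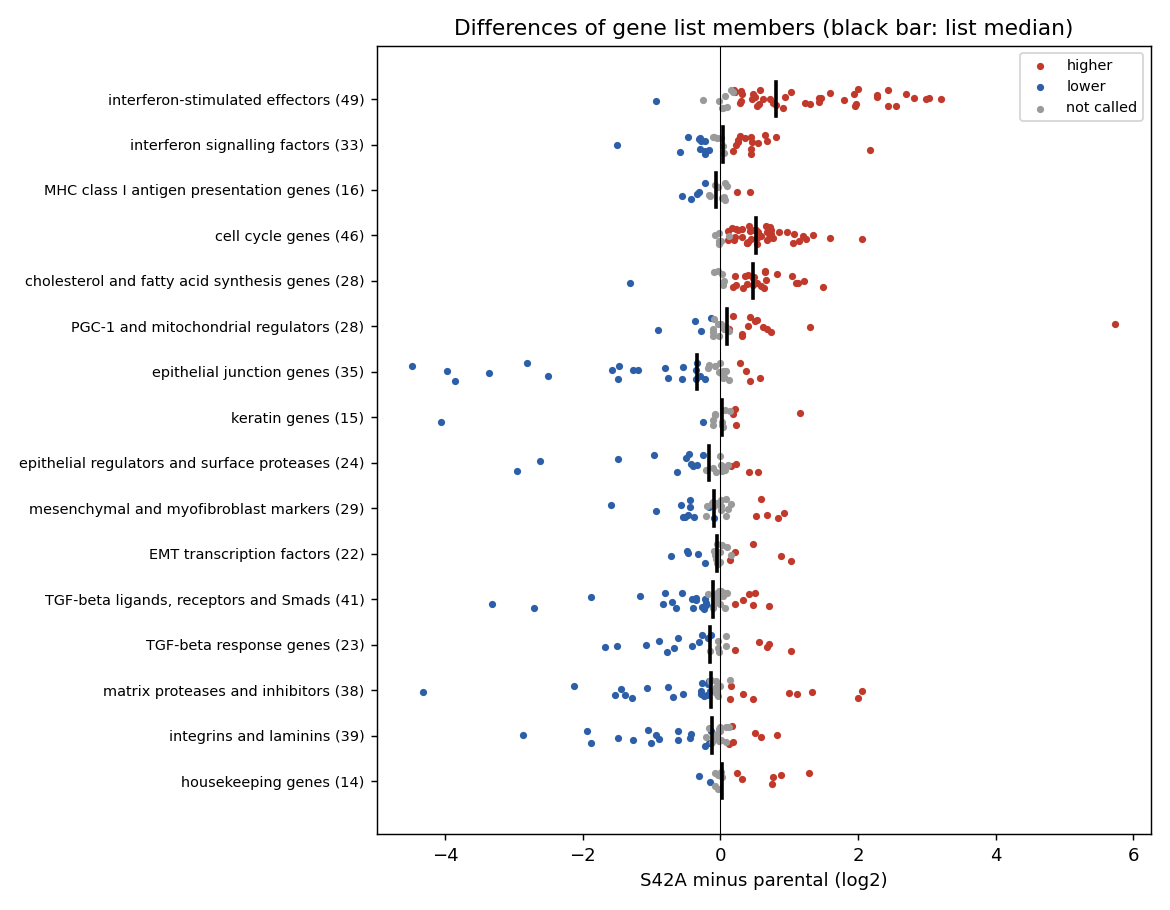
S42A minus parental differences (log2, horizontal axis) of the measured members of 16 gene lists, 1 point per gene, red for called higher, blue for called lower and grey for not called, with a black bar at each list's median and the number measured in parentheses. The interferon-stimulated effectors, cell cycle genes and lipid synthesis genes have medians of 0.813, 0.524 and 0.473, and the epithelial junction genes -0.347.

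Cell cycle genes rose together. Of 46 measured, 40 were higher and 6 not called, and 0 were lower by limma (0 at an unadjusted p under 0.05). The median was 0.524, and 8 were at least 2-fold higher. The share called higher over all genes was 22.6%. Ccne1 and Ccne2 encode the E cyclins that start DNA replication, and Tyms makes thymidylate for it. Ccne1 read 10.87, 10.92 and 10.83 in the S42A line, against 8.84, 8.79 and 8.81 in parental cells (2.06 ± 0.053), with well separated arrays. Tyms read 10.86, 10.96 and 10.95 in the S42A line, against 9.37, 9.35 and 9.27 in parental cells (1.59 ± 0.048), and Ccne2 rose by 1.35 ± 0.078. The 6 genes not called were Cdk4, Ccnd2 and the inhibitors Cdkn1b, Cdkn1c, Cdkn2a and Cdkn2b, named after their values were seen. Another inhibitor, Cdkn2c, was among the genes called higher (0.39 ± 0.049), and the inhibitor Cdkn1a had no value. Against the S42D line 27 of the 46 were higher and 1 lower, against Tw1KD cells 36 and 2, and against the wild-type line 13 and 19, with medians of 0.162, 0.53 and -0.061. Over all genes 36.1%, 42.5% and 40% were called in these comparisons. The rise over parental cells was shared by the wild-type line, with 38 higher and 2 lower (median 0.649). It was also shared by the S42D line, with 34 and 1 (median 0.355), while Tw1KD cells had 15 and 16. Over all genes 49%, 37% and 36.3% were called in the wild-type, S42D and Tw1KD lines against parental cells.

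Genes of cholesterol and fatty acid synthesis were also mostly higher, 22 of 28 measured, with 1 lower, 5 not called and a median of 0.473. Over all genes 22.6% were called higher. Cyp51, which demethylates lanosterol, read 10.15, 10.22 and 10.23 in the S42A line, against 8.72, 8.67 and 8.75 in parental cells (1.49 ± 0.096). Idi1, the isopentenyl diphosphate isomerase, read 11.05, 11.02 and 11.03 in the S42A line, against 9.90, 9.91 and 9.92 in parental cells (1.12 ± 0.080), and its second probe set gave 1.22. The arrays of the 2 lines were clearly apart in both genes. Stard4, a carrier of sterols, rose by 1.22 ± 0.074. The 1 gene that fell was the sterol reductase Tm7sf2 (-1.31 ± 0.080), which read 6.90, 6.81 and 6.60 in the S42A line, against 8.14, 8.07 and 8.04 in parental cells. Against the S42D line 24 were higher and 3 lower (median 0.576), against Tw1KD cells 25 and 3 (median 1.09), and against the wild-type line 6 and 9 (median 0.0038). Over all genes 36.1%, 42.5% and 40% were called in these comparisons. In Tw1KD cells against parental cells, 3 were higher and 22 lower (36.3% of all genes called). The wild-type line against parental cells had 22 higher and 5 lower (49% called), and the S42D line 8 and 12 (37% called).

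The other genes listed with Ppargc1a differed by far less than it did. Of 28 PGC-1 and mitochondrial regulators, 13 were higher and 4 lower, with a median of 0.102 (60.7% called, against 40.3% over all genes). Idh3a, a subunit of a citric acid cycle enzyme, read 11.86, 11.82 and 11.70 in the S42A line, against 10.41, 10.45 and 10.59 in parental cells (1.31 ± 0.067). Cycs, cytochrome c, rose by 0.74 ± 0.083, and its 2 dimmer probe sets gave 1.38 and 0.79. Cpt1a, which admits fatty acids to mitochondria, fell (-0.90 ± 0.050), as did the mitochondrial ribosomal RNA methylase Tfb1m (-0.37 ± 0.059) and the fatty acid dehydrogenase Acadm (-0.28 ± 0.049).

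Hypoxia and glycolysis genes were split, 11 of 32 higher and 9 lower (median 0.081). Those called made up 62.5%, against 40.3% over all genes, and centring each array gave 17 higher. Car9, a carbonic anhydrase induced by low oxygen, read 8.05, 8.22 and 8.41 in the S42A line, against 11.75, 11.73 and 11.68 in parental cells (-3.49 ± 0.076). Its relative Car12 (-1.99 ± 0.049) and the peptide hormone gene Adm (-1.05 ± 0.12) also fell. Pfkp, a phosphofructokinase (1.03 ± 0.041), and the enolase Eno2 (0.67 ± 0.055) rose.

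Of 34 unfolded protein and amino acid stress genes, 5 were higher and 15 lower (median -0.121), and 9 were lower after centring. As deposited 58.8% of the list was called, against 40.3% over all genes. The cystine transporter Slc7a11 (-1.26 ± 0.045), the transcription factor Xbp1 (-0.68 ± 0.048) and the glutathione-degrading enzyme Chac1 (-0.65 ± 0.050) led the falls.

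Epithelial junction genes moved down. Adherens junctions hold neighbouring cells through E-cadherin, tight junctions seal the gaps through claudins and occludin, and desmosomes tie the keratin filaments of adjacent cells together. Of 35 measured members, 20 were lower, 4 higher and 11 not called, with a median of -0.347, and 11 were at least 2-fold lower. Over all genes 17.7% were called lower. In bulk RNA a smaller share of cells with a gene and less RNA of it per cell cannot be told apart.

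Cdh1 read 6.41, 6.26 and 6.33 in the S42A line, against 10.33, 10.31 and 10.29 in parental cells. The desmosomal protein gene Perp read 5.20, 5.30 and 5.03 in the S42A line, against 9.71, 9.53 and 9.73 in parental cells, and the tight junction gene Cldn4 7.50, 7.25 and 7.17 in the S42A line, against 11.23, 11.11 and 11.15 in parental cells. In each gene the highest S42A array lay far below the lowest parental array. The differences were -3.97 ± 0.045, -4.48 ± 0.091 and -3.86 ± 0.12 (adjusted p = 9.82e-16, 7.70e-14 and 9.63e-12). Epcam, an epithelial surface adhesion protein, read 5.47, 5.64 and 5.54 in the S42A line, against 7.91, 8.37 and 8.80 in parental cells (-2.81 ± 0.21). Its parental arrays were widely spread, and none reached the S42A range. The junction genes that rose were the adhesion receptor Nectin1 (0.58 ± 0.065), the polarity gene Llgl2 (0.43 ± 0.079), Cldn1 (0.37 ± 0.10) and, named after its value was seen, the periplakin gene Ppl (0.28 ± 0.058).

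The other lines were laid out differently from gene to gene. Cdh1 averaged 6.34 in the S42A line, 7.50 in the S42D line, 8.52 in the wild-type line, 11.46 in Tw1KD cells and 10.31 in parental cells, and the S42A line was -1.17 from the S42D line and -2.18 from the wild-type line (adjusted p = 6.57e-11 and 1.38e-13). Perp averaged 5.18 in the S42A line, 8.88 in the S42D line and 6.70 in the wild-type line. Epcam was dim in all 3 rescue lines, at 5.55 in the S42A line, 5.63 in the S42D line and 5.66 in the wild-type line, differences that were not called (adjusted p = 0.831 and 0.735). Over the 35 junction genes, the S42A line had 2 higher and 10 lower against the S42D line, 9 higher and 10 lower against the wild-type line and 1 higher and 22 lower against Tw1KD cells. Over all genes 36.1%, 40% and 42.5% were called in these 3 comparisons, so the count against the S42D line, 12 of 35, was no larger a share than over all genes. The Tw1KD line against parental cells had 21 higher and 3 lower. Like the S42A line, the wild-type and S42D lines had mostly falls against parental cells, with 3 higher and 20 lower, and 5 and 18. Over all genes 36.3%, 49% and 37% were called in these comparisons with parental cells.

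Promoter windows were found for 13 of the 20 junction genes that fell, not including Cdh1. An E-box in its general form, CANNTG, was in 11 of the 13 (84.6%), against 68.0% of all windows. Among junction genes not called it was in 5 of 6 (83.3%), so its share was alike whether or not a gene fell. The form CATCTG, often given for Twist1, was searched on both strands and was in none of the 13, against 14.1% of all windows. With 13 windows these shares are rough, and absence from 300 bases says nothing of the rest of the gene.

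Keratins, the intermediate filaments of epithelial cells, were split. Of 15 measured, 4 were higher, 2 lower and 9 not called (median 0.030), about the share called over all genes. Krt19 read 6.24, 5.96 and 5.83 in the S42A line, against 10.09, 10.12 and 9.99 in parental cells (-4.06 ± 0.081), so the S42A arrays were not far above the dimmest 25% of genes. Krt8 was among the brightest genes in both lines, with 13.09 ± 0.016 in the S42A line, against 13.06 ± 0.037 in parental cells, and was not called (adjusted p = 0.457). Its partner Krt18 fell to 12.38, against 12.63 in parental cells (-0.26 ± 0.041, or -0.17 after centring each array). Signals this bright may compress a difference. Krt23 rose by 1.16 ± 0.12. Krt20, at 0.22 ± 0.078, lost its call in 6 of the 14 alternatives.

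Among 24 regulators of the epithelial state and surface proteases, 11 were lower and 4 higher (median -0.16), 62.5% called against 40.3% over all genes. St14, the membrane protease matriptase, read 7.20, 7.28 and 7.05 in the S42A line, against 10.19, 10.02 and 10.19 in parental cells (-2.95 ± 0.060). Grhl2, a transcription factor that maintains junction genes, read 5.86, 5.84 and 6.15 in the S42A line, against 7.54, 7.34 and 7.45 in parental cells (-1.49 ± 0.086). Both were fully separated between the lines. Grhl2 averaged 7.64, 7.86 and 7.97 in the S42D, wild-type and Tw1KD lines, and the S42A line was below each of them (differences of -1.69, -1.91 and -2.02, adjusted p = 1.43e-09, 3.94e-10 and 1.26e-10). Esrp1 fell as given above (-2.62 ± 0.086). Elf3, an epithelial transcription factor (0.42 ± 0.070), and the membrane protein gene Prrg4 (0.54 ± 0.066) rose.

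Few mesenchymal genes were higher. Of 29 mesenchymal and myofibroblast markers, 5 were higher, 11 lower and 13 not called, with a median of -0.100, where 22.6% of all genes were higher and 17.7% lower. The intermediate filament gene Vim was near the top of the array's range in both lines, at 13.49 ± 0.0052 in the S42A line, against 13.48 ± 0.011 in parental cells (adjusted p = 0.86). Cdh2, N-cadherin, was dim in both, at 4.59 ± 0.046 in the S42A line, against 4.58 ± 0.051 in parental cells (adjusted p = 0.938). The fibronectin gene Fn1 read 12.86, 12.84 and 12.85 in the S42A line, against 13.34, 13.34 and 13.40 in parental cells and fell (-0.51 ± 0.037). The PDGF receptor genes Pdgfrb (-1.59 ± 0.076) and Pdgfra (-0.44 ± 0.043) fell too. Rises were seen in nestin, Nes (0.93 ± 0.067), the calcium-binding motility protein gene S100a4 (0.83 ± 0.047) and the matrix protein gene Postn (0.67 ± 0.080).

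The transcription factors of the epithelial-mesenchymal transition were likewise split, 5 of 22 higher and 5 lower (median -0.044), shares close to the 22.6% and 17.7% over all genes. Snai2 read 4.52 ± 0.079 in the S42A line, against 4.57 ± 0.081 in parental cells and was not called (adjusted p = 0.62). Snai1 was 0.22 ± 0.054 higher and Zeb2 differed by -0.23 ± 0.046, and each lost its call under 1 other scaling. Zeb1, at 0.099 ± 0.058, was not called as deposited (adjusted p = 0.214) and was called higher after centring or quantile normalization. Larger differences lay in 3 of the 4 Id genes, which encode inhibitors that bind the partners of basic helix-loop-helix factors. Id1 rose by 1.03 ± 0.051, Id4 by 0.87 ± 0.076 and Id2 by 0.48 ± 0.053, while Id3 was not called (-0.040 ± 0.082, adjusted p = 0.758, named after its value was seen). The forkhead gene Foxc1 fell (-0.72 ± 0.064).

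Of 36 collagen and matrix genes, 6 were higher and 12 lower (median -0.045), 50% called against 40.3% over all genes. Besides Dpt, the growth regulator Ccn3 (1.12 ± 0.063) and the collagen Col12a1 (0.97 ± 0.058) rose. The osteoglycin gene Ogn (-3.31 ± 0.11), the Wnt-induced gene Ccn4 (-2.05 ± 0.073) and the connective tissue growth factor gene Ccn2 (-1.68 ± 0.047) fell. Ccn2 read 9.33, 9.45 and 9.30 in the S42A line, against 11.05, 11.02 and 11.06 in parental cells. All 3 S42A arrays lay well below the parental arrays.

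Several ligands of the TGF-beta family were lower. TGF-beta and activins bind paired serine-threonine kinase receptors that phosphorylate Smad2 and Smad3, and BMPs use Smad1, Smad5 and Smad9. Of 41 ligands, receptors and Smads, 19 were lower and 6 higher, with a median of -0.103 (61% called, against 40.3% over all genes). Tgfb2 read 7.46, 7.64 and 7.71 in the S42A line, against 8.89, 8.62 and 8.80 in parental cells, and Inhba, the subunit of activin A, 7.74, 7.91 and 7.73 in the S42A line, against 10.54, 10.35 and 10.61 in parental cells. Bmp7 read 7.08, 7.17 and 7.12 in the S42A line, against 10.45, 10.44 and 10.44 in parental cells. None of these 3 ligands had overlapping arrays. The differences were -1.16 ± 0.090, -2.70 ± 0.099 and -3.32 ± 0.049 (adjusted p = 9.16e-08, 3.62e-11 and 7.43e-15). Ltbp2, a matrix protein related to those that bind latent TGF-beta, fell as well (-1.88 ± 0.049).

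The 3 ligands differed in how the other lines lay. Tgfb2 averaged 7.60 in the S42A line, 8.61 in the S42D line, 7.12 in the wild-type line, 5.85 in Tw1KD cells and 8.77 in parental cells. For Inhba the means were 7.80 in the S42A line, 10.47 in the S42D line, 8.15 in the wild-type line, 6.37 in Tw1KD cells and 10.50 in parental cells. In both genes the S42D line was not called different from parental cells (adjusted p = 0.198 and 0.841), and the S42A line was below the S42D line by a called margin (-1.01 and -2.67). Bmp7 was low in the S42A line (7.12) and averaged 9.79, 9.84 and 10.20 in the S42D, wild-type and Tw1KD lines.

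Of 23 genes that respond to TGF-beta, 12 were lower and 5 higher (median -0.146), 73.9% called against 40.3% over all genes. Beside Ccn2, the feedback inhibitor gene Pmepa1 (-1.51 ± 0.039) and the cytokine gene Il11 (-1.08 ± 0.10) fell. Against these, the inhibitory Smad gene Smad7 rose by 0.70 ± 0.043, Ctps, a CTP synthase gene, by 0.68 ± 0.068 and Id1 as above.

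Of 56 receptor tyrosine kinases and their ligands, 22 were lower and 12 higher (median -0.083), 60.7% called against 40.3% over all genes. Fgfr1, a fibroblast growth factor receptor gene, fell the most (-2.88 ± 0.074), and Erbb3, of the epidermal growth factor receptor family, fell by less (-0.96 ± 0.086). Vegfc, a lymphatic growth factor (1.57 ± 0.086), Kitl, the ligand of Kit (0.98 ± 0.051), and Met, the receptor of hepatocyte growth factor (0.47 ± 0.046), rose. Among 35 components of the PI3K-Akt pathway, 14 rose and 14 fell (median -0.042), which is 80% called. Pik3r3, a regulatory subunit of PI3K, read 7.78, 8.06 and 7.81 in the S42A line, against 5.80, 6.01 and 5.84 in parental cells (2.0 ± 0.085), with the S42A arrays all above. The adaptor Irs1 (0.65 ± 0.061, and 0.39 as the mean of its 2 probe sets) and the phosphatase Inpp5d (0.54 ± 0.061) rose. Inpp4b, a phosphatase that opposes the pathway (-0.99 ± 0.12), the kinase gene Sgk3 (-0.95 ± 0.085) and the insulin receptor gene Insr (-0.87 ± 0.060, and -0.83 from a second probe set) fell.

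Matrix proteases and their inhibitors had 18 of 38 lower and 9 higher (median -0.143), and 11 lower when each array was centred on its median. As deposited 71.1% were called, against 40.3% over all genes. Beside Mmp9, the secreted serpin gene Serpinf1 (-2.13 ± 0.071) and the collagenase gene Mmp13 (-1.53 ± 0.10) fell. The mouse interstitial collagenase genes Mmp1a (2.0 ± 0.060) and Mmp1b (2.06 ± 0.14) and the aggrecanase-like Adamts1 (1.33 ± 0.084) rose. Mmp1a read 7.39, 7.34 and 7.30 in the S42A line, against 5.36, 5.23 and 5.42 in parental cells. Mmp1a and Mmp1b are close copies whose probes may read each other.

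Integrins and laminins attach cells to the matrix, and of 39 measured 17 were lower and 6 higher (median -0.12). The share called was 59%, against 40.3% over all genes. The collagen receptor subunit Itga2 (-2.87 ± 0.090), the adhesion ligand Icam1 (-1.93 ± 0.11) and the leukocyte integrin chain Itgb2 (-1.88 ± 0.049) fell. Itgb7 (0.83 ± 0.067), Itga5, the fibronectin receptor subunit (0.59 ± 0.050), and Itga8 (0.50 ± 0.069) rose.

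In the p53, stem and mammary lineage, and Wnt and IGF lists the share of rises was near or below the 22.6% over all genes. The share of falls was above the 17.7% over all genes in each. Those called made up 52.4%, 40.6% and 34.8% of these lists, against 40.3% over all genes. Of 21 p53 response genes, 5 were higher and 6 lower. Beside Perp, the stress genes Gadd45a (-1.69 ± 0.064) and Btg2 (-1.32 ± 0.053) fell, and Aen (0.75 ± 0.067), Zmat3 (0.67 ± 0.065) and Tigar (0.49 ± 0.066) rose. Among 32 stem and mammary lineage markers 8 were lower and 5 higher, and up to 9 were higher under other scalings. The Notch ligand gene Jag1 (-1.16 ± 0.073) and the milk protein gene Csn3 (-0.94 ± 0.045) fell, and Notch1 rose by 0.26 ± 0.056. Of 23 secreted Wnt and IGF modulators 8 were lower and 0 higher by limma (0 at an unadjusted p under 0.05), led by Sfrp1, Wnt10a (-1.83 ± 0.054) and Igfbp7 (-1.25 ± 0.087).

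Markers of other cell types were read beside these lists. Of 10 carcinoma epithelium markers, 6 were lower, 1 higher and 3 not called, and their mean level was 8.23 to 8.39 on the S42A arrays and 9.90 to 9.97 on the parental arrays. The 11 leukocyte and macrophage markers averaged 6.26 to 6.32 on S42A arrays and 6.04 to 6.11 on parental arrays. In this list Cd68 (1.77 ± 0.048) and Lyz2 (1.13 ± 0.13) were higher and Lst1 lower, while the defining leukocyte gene Ptprc was dim, at 5.23 ± 0.12 in the S42A line, against 5.19 ± 0.11 in parental cells (adjusted p = 0.712). Fibroblast markers (10 measured, 1 higher, 3 lower) averaged 6.49 to 6.63 on S42A arrays and 6.72 to 6.78 on parental arrays. Endothelial markers (10 measured, 1 higher, 1 lower) averaged 6.44 to 6.57 on S42A arrays and 6.28 to 6.41 on parental arrays, with Cdh5 higher by 1.60 ± 0.087 and Pecam1 dim in both lines. Of 9 adipocyte and muscle markers, Des and Fabp4 were higher by 1.24 ± 0.10 and 0.45 ± 0.065. The shares called were 70% for carcinoma epithelium and 40% for fibroblast markers, where 40.3% of all genes were called. They were 27.3% for leukocyte and macrophage, 20% for endothelial and 22.2% for adipocyte and muscle markers. The part of such marker differences in the lists above was not tested.

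Housekeeping genes, given as a check on scaling, had 6 of 14 higher and 2 lower with a median of 0.021. Those called made up 57.1%, against 40.3% over all genes, and the share higher was above the 22.6% over all genes. Tfrc (1.29 ± 0.046), Gusb (0.88 ± 0.041) and Hprt (0.77 ± 0.070) rose, and Tbp fell (-0.31 ± 0.041). Actb, named after its value was seen, read 13.55 ± 0.031 in the S42A line, against 13.54 ± 0.016 in parental cells (adjusted p = 0.839).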

How the data were processed

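Expression was read on arrays of total RNA from 5 lines of 4T1 cells, 3 arrays each. The authors deposited 1 log2 intensity per probe set and array, a unit read from the values themselves. The submitters' processing notes name affy and R 2.10.0 without saying for which step. How background was corrected, arrays scaled and probes summarised is not given in the sources used here. Array quartiles lay close together, so differences are relative to the other transcripts of an array. For arrays the number of arrays, not a read depth, limits the precision.

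Of 34760 probe sets, 21640 carried 1 symbol, 1321 several and 11799 none. Symbols were updated by gene number with RefSeq's mouse gene table (GRCm38.p6), which matched 21553. Each of 19937 genes was read by its brightest probe set with 1 symbol, and 954 genes had more than 1. No filter on dim probe sets was used. Groups came from titles. A linear model of line means over all 15 arrays was fitted with limma 3.58.1 (R 4.3.3), and genes were called by the moderated test, 2-sided, at a Benjamini-Hochberg adjusted p under 0.05. Genes were named if called with arrays that did not overlap: the 12 largest rises and falls, passing over predicted and clone-named models, and the 3 largest of each of 26 lists in each direction, plus 16 fixed genes whatever their result. Members and lists were chosen with earlier results of these data known. The fit was tested on simulated data. Alternatives were another set of arrays, a replicate block, 2 scalings, a dim filter, probe set means, an intensity trend, array weights and leaving out each array. Promoter windows came from RefSeq.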

Additional observations from a re-analysis of the deposited data

Results flagged for a closer look

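Among the named genes, 11 were called on opposite sides of parental cells in the S42A line and in another rescue line, each by at least 1.5-fold and with arrays that did not overlap those of parental cells. Other genes were not screened. In each of the 11, the S42A line differed from that rescue line by its own limma contrast, whose value is given. The differences from parental cells share the parental arrays.

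Against the wild-type Twist1 line, 6 of these 11 genes, all from the interferon and cell death lists, were higher in the S42A line. Trim30a was higher by 4.62 ± 0.089 (adjusted p = 8.46e-14), with 2.98 for the S42A line and -1.64 for the wild-type line against parental cells. Usp18 was higher by 3.63 ± 0.069, with 3.03 for the S42A line and -0.60 for the wild-type line against parental cells. Irf7 was higher by 3.46 ± 0.13 (S42A 2.17 and wild-type -1.29 against parental cells), Birc3 by 2.33 ± 0.093 (S42A 0.98 and wild-type -1.35 against parental cells), Tlr3 by 1.90 ± 0.066 (S42A 0.81 and wild-type -1.09 against parental cells) and Tnfsf10 by 1.73 ± 0.13 (S42A 0.96 and wild-type -0.77 against parental cells). Lower in the S42A line than in the wild-type line were Adm, with a difference of -2.02 ± 0.12 (S42A -1.05 and wild-type 0.97 against parental cells), and Chac1, with a difference of -1.35 ± 0.050 (S42A -0.65 and wild-type 0.70 against parental cells).

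Against the S42D line, 3 of the 11 genes were lower in the S42A line. Pdgfrb differed by -3.70 ± 0.076 (adjusted p = 7.82e-14), with -1.59 for the S42A line and 2.11 for the S42D line against parental cells. Itgb2 differed by -2.94 ± 0.049 (S42A -1.88 and S42D 1.06 against parental cells) and Car12 by -2.80 ± 0.049 (S42A -1.99 and S42D 0.81 against parental cells).

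Probe sets with no gene symbol or with several were left out of the test of genes. Of these, 78 were called and at least 2-fold higher in the S42A line, 44 of 11799 with no symbol and 34 of 1321 with several. At least 2-fold lower were 262 with no symbol and 20 with several. Over the genes tested, 1.62% were at least 2-fold higher and 1.9% at least 2-fold lower.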

How the results depend on the processing

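Over 14 alternatives, the counts of genes called stayed within 1.5 times of those given, except that 2232 genes were called lower (3524 as deposited) when each array was centred on its median. Leaving out 1 array at a time gave 4111 to 4429 genes higher, 3112 to 3705 lower, 293 to 343 at least 2-fold higher and 374 to 393 at least 2-fold lower. Of 159 named genes called, 154 kept their direction and call under every alternative that gave them a value, and none of the 159 reversed. The exclusion of the dimmest 25% of genes gave no value for 3 of the 159. The exceptions were Zeb2 and Rps18 after centring (-0.14, adjusted p = 0.0853, and -0.064, adjusted p = 0.425), Snai1 after quantile normalization (0.16, adjusted p = 0.061), Grhl1 when any of 5 arrays was left out and Krt20 in 6 settings. Zeb1 became called after centring (0.19, adjusted p = 0.0327) and quantile normalization (0.17, adjusted p = 0.0343). Deviations from the line mean of same-numbered S42A and parental arrays correlated at -0.0273, -0.192 and 0.0712. For differently numbered arrays the values ran from -0.193 to 0.221. With 3 arrays per line, these values cannot tell whether arrays were handled in pairs. With the number as a replicate block 4438 genes were higher and 3454 lower, with Krt20 lost. Signals near background limit what can be read of large folds. The cause of these shifts was not tested beyond the centring itself, which moves all differences together.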

Other observations

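Of 296 measured microRNA genes, a group looked at after the data were seen, 7 were called higher and 46 lower in the S42A line, with a median difference of -0.068. These are 2.36% and 15.5% of them, where 22.6% of all genes were higher and 17.7% lower. The lower quartile of an array's values was also lower on the S42A arrays (5.04 to 5.06) than on the parental arrays (5.11 to 5.17). Whether this shift among dim probe sets accounts for the microRNA median, or dimness for the low share of rises, was not tested. The primary transcripts of the miR-200 family, which restrains Zeb1 and Zeb2 in epithelial cells, were not called. Mir200a read 6.41 ± 0.15 in the S42A line and 6.51 ± 0.091 in parental cells, and Mir200b read 4.69 ± 0.25 in the S42A line, against 4.66 ± 0.22 in parental cells. Mir200c read 4.96 ± 0.31 in the S42A line, against 5.20 ± 0.24 in parental cells, and Mir141 4.41 ± 0.23 in the S42A line, against 4.51 ± 0.074 in parental cells. Mir200b, Mir200c and Mir141 lay below 5.5 in both lines, among the dimmest genes, where array background compresses folds. Their SDs in the S42A line, 0.23 to 0.31, were far above the median of 0.068 over all genes. No conclusion is therefore drawn from their lack of a call. An array of this kind reads the precursor region and not the mature microRNA.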
